A study of Mus musculus with 12 samples.

Results

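Liver of Sirt6 knockout mice at 29 days of age was measured on 2 of the 12 microarrays of the series, the arrays labelled as 29-day liver replicates 1 and 2. On each array, RNA from a Sirt6 knockout tissue was labelled with Cy5 and RNA from the matching wild type tissue of the same age with Cy3, so each value is a log2 ratio of knockout over wild type. The remaining 10 arrays form 5 groups of 2, namely skin, spleen and thymus of 29-day knockout mice and liver and spleen of 21-day ones. A pool of 3 wild type littermates served as control for the younger mice. For the 29-day arrays the labels leave unsaid how the wild type RNA was made up, whether both 29-day liver arrays used the same wild type RNA, or whether the knockout RNA came from separate animals, and no sex, strain or allele is given.

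Sirt6 is an NAD-dependent deacylase bound to chromatin, and mice that lack it stay small and die young. Liver is the main site where the body makes cholesterol, bile acids and the proteins of blood plasma. In hepatocytes the genes of cholesterol synthesis are switched on together by the transcription factor SREBP2 when sterol in the endoplasmic reticulum runs low, and the genes of fatty acid synthesis by SREBP1c, which responds to insulin. Pituitary growth hormone acts on the same cells through its receptor and STAT5 to drive Igf1 and many genes that differ between male and female liver.

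The 2 arrays gave 38445 and 38371 values for 38784 probes. Each array was centred on its median, probes of a gene symbol were averaged, and limma tested the group mean against 0 with the spread estimated over all 12 arrays. Of 30812 features tested (14634 genes with a symbol and 16178 unnamed probes), 32 were called at an adjusted p below 0.05 (0.104%). Of these, 26 were lower in the knockout (0.0844%) and 6 higher (0.0195%), and the calls included 17 lower and 2 higher genes with a symbol. At an unadjusted p below 0.05 there were 671 features (2.18%), 448 lower (1.45%) and 223 higher (0.724%). After centring, the median of all features was 0.009, and 5% to 95% of them lay between -0.34 and 0.28. Leaving out a liver array gave 12 calls without replicate 1 and 14 without replicate 2, leaving out a 29-day skin or thymus array gave 18 or 19, and leaving out either 21-day spleen array gave 59. With each array scaled to the same median absolute deviation the count was 289 (58 higher), with quantile normalization 429 (74 higher), and with centring on ribosomal protein and respiratory chain genes 11 (2 higher). The p-values reflect only how far arrays of the same group differ, over all 6 groups and not liver alone, and not how far wild type mice do. The widest array, 21-day spleen replicate 6, had an SD of 1.14 and 10155 missing values, beside SDs of 0.31 and 0.36 on the liver arrays. As the dyes were never exchanged, a dye preference of a probe is part of its ratio.

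The arrays did not mirror each other over the whole table. Across the genes with a symbol the correlation of replicate 1 with replicate 2 was 0.312 and over all probes, named or not, 0.176 (Pearson r, descriptions over features that share the arrays). Of the named genes, 23.6% were above 0 on both arrays and 25.9% below 0 on both. At the extremes, 14 genes were above 1 on both arrays and 60 were below -1 on both. Sirt6 itself was read by a pair of probes. One gave -0.16 on replicate 1 and -0.04 on replicate 2, and the other had no value on replicate 1 and gave -0.55 on replicate 2. The mean of the gene was -0.23 (SE 0.39, n = 2, adjusted p = 1). In 21-day liver the former probe gave 0.03 and -0.59 and the latter -1.22 and -0.77 (replicates 2 and 11). Means of the gene in the other groups ran from -1.18 in 21-day spleen to 0.17 in 29-day spleen. The sources used here do not place these probes within or outside the deletion, so the values do not settle the genotype label.

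**Figure D1:**
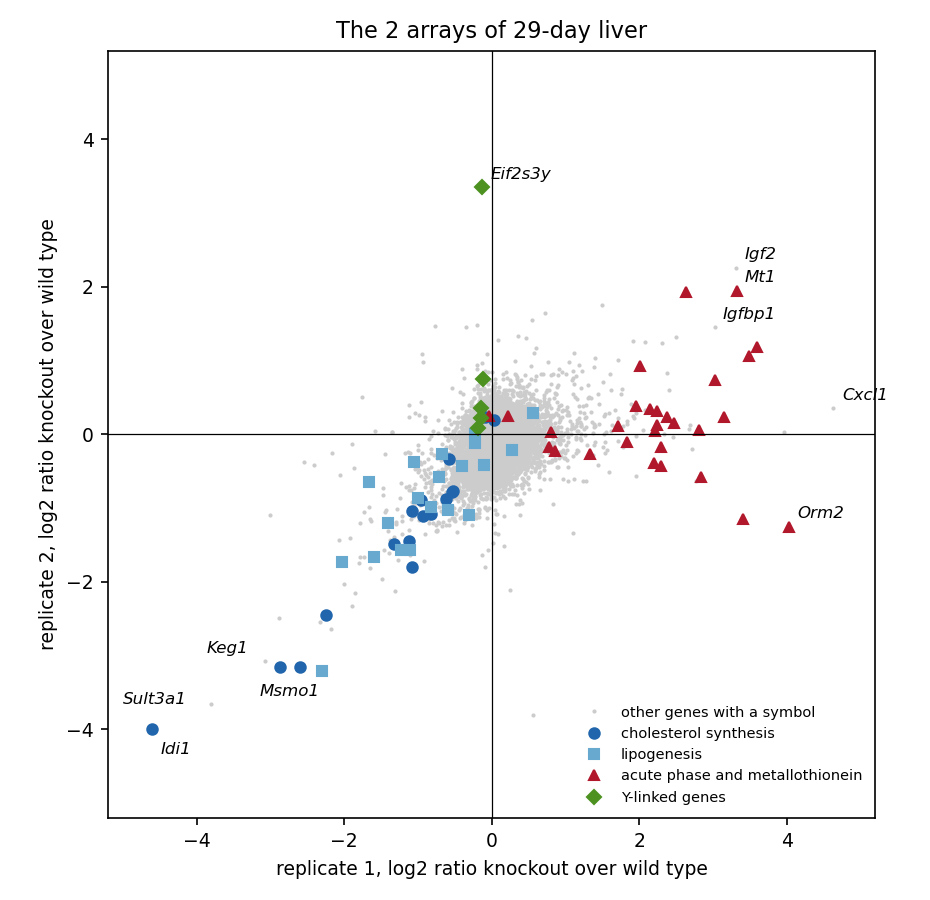
Log2 ratio of knockout over wild type on replicate 1 (x axis) against replicate 2 (y axis) of 29-day liver, 1 point per gene with a symbol. Cholesterol synthesis and lipogenesis genes lie toward the lower left on both arrays, most acute phase genes lie far to the right on replicate 1 and nearer 0 on replicate 2, and the Y-linked gene Eif2s3y is high on replicate 2 alone.

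Cholesterol synthesis genes had the lowest median of the 42 lists in the 29-day knockout liver. Of 17 tested genes of the pathway (of 21 listed; the other 4 were not analysed here), 5 fell and 0 rose by limma's adjusted p, against 0.0844% of all features lower. At an unadjusted p below 0.05, 13 were lower and 0 higher, beside 1.45% and 0.724% of all features. The list's median was -1.02 (-0.96 on replicate 1 and -1.09 on replicate 2), beside 0.009 for all features, and 15 of the 17 genes were below 0 on both arrays, which 22.9% of all features were.

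The promoters of the 5 genes that fell are shown as context, because SREBP2 acts at promoters of this pathway. Each is the window from 250 bases before to 50 bases after the start of the gene in RefSeq, assembly GRCm38.p6, read 5′ to 3′ on the gene's strand. Capitals mark the letters TCACNCCAC, a form of the sterol regulatory element, and CCAAT, the box bound by NF-Y, on either strand (CCAAT reads ATTGG on the other one). Hmgcs1 lies at chr13:119690101-119690400 (plus strand), Idi1 at chr13:8885356-8885655 (plus), Cyp51 at chr5:4104648-4104947 (minus), Msmo1 at chr8:64733529-64733828 (minus) and Sc5d at chr9:42264251-42264550 (minus).
Hmgcs1: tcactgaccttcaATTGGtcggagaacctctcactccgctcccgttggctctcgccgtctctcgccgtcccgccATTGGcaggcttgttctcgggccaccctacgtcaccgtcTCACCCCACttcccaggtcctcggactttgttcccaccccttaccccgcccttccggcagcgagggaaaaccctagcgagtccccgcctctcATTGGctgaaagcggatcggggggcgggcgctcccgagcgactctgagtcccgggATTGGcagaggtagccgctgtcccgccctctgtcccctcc
Idi1: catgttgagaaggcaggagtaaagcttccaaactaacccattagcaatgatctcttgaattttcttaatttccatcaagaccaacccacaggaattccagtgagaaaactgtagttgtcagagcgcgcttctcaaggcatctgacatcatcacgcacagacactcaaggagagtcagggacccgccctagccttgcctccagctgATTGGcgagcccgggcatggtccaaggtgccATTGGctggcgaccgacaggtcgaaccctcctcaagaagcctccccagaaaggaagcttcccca
Cyp51: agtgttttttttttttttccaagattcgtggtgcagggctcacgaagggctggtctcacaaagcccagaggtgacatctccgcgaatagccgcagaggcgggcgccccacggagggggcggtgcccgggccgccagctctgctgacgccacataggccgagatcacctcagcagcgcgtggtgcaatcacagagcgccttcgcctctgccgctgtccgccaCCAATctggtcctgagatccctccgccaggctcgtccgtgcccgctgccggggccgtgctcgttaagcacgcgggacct
Msmo1: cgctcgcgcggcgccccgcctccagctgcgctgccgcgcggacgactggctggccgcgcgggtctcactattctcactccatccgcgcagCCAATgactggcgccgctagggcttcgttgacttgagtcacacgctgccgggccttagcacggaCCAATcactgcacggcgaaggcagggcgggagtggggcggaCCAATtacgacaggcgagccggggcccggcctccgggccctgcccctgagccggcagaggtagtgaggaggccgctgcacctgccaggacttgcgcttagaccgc
Sc5d: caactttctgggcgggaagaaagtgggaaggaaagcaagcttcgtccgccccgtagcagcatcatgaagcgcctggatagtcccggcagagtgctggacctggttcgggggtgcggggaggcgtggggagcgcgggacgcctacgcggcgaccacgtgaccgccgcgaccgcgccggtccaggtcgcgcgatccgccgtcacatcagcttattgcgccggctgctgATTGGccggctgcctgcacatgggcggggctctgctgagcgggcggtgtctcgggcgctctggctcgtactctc

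Genes were counted where any of their windows held the letters. TCACNCCAC occurred in 1 of the 14 measured pathway genes that have a window, Hmgcs1, at positions 114 to 122. It occurred in 1.43% of the 11848 tested genes that have a window. The CCAAT letters occurred in all 14, including the 5 that fell, beside 42.7% of the tested genes that have a window. Hmgcs1 held 4 of them, Msmo1 3, Idi1 2, and Cyp51 and Sc5d 1 each. A match describes the letters in this window and is neither a site nor a cause, and no binding was measured. Other forms of the sterol regulatory element were not searched, so a window without these letters may still hold such an element.

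Along the pathway the ratios were uneven. Hmgcs1, which makes HMG-CoA at the entry, was at -2.60 and -3.16 on replicates 1 and 2, a fall of 7.35-fold (mean -2.88, SE 0.23, adjusted p = 0.00131). The next enzymes changed less and passed no adjusted test: the mevalonate kinase gene Mvk was at -0.54 and -0.78, the phosphomevalonate kinase gene Pmvk at -0.57 and -0.33, and the decarboxylase gene Mvd at -0.82 and -1.09. Idi1, which turns isopentenyl diphosphate into its reactive isomer, was at -4.61 and -4.00, the lowest mean of any gene with a symbol (-4.30, SE 0.42, a 19.7-fold fall, adjusted p = 0.00844). Both arrays thus put Idi1 well below its neighbours in the pathway.

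The farnesyl diphosphate branch point held mixed values. Fdps, the farnesyl diphosphate synthase gene, averaged -0.94 and -1.11, but its probes disagreed in size, at -1.72 and -2.19 for one and -0.15 and -0.03 for the other. Ggps1, which draws farnesyl diphosphate away toward protein prenylation, was at 0.03 and 0.19, and Fdft1, the squalene synthase gene that commits it to sterols, at -0.09 and 0.23. These were the only members of the list that were not below 0 on both arrays. The squalene epoxidase gene Sqle was at -1.09 and -1.80, and the lanosterol synthase gene Lss at -0.96 and -0.90; neither passed the adjusted test.

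Enzymes that trim lanosterol to cholesterol included 3 of the falls. Msmo1, a methylsterol oxidase, was at -2.87 and -3.15 (mean -3.01, SE 0.23, an 8.05-fold fall, adjusted p = 0.00114). Cyp51, the lanosterol demethylase, was at -2.24 and -2.45 (mean -2.35, SE 0.22, adjusted p = 0.00465), and its probes gave -2.22 and -2.99 and -2.27 and -1.91 on replicates 1 and 2. Sc5d, a sterol desaturase, was at -1.33 and -1.49 (mean -1.41, SE 0.18, adjusted p = 0.0422). The 4 other late enzymes had means between -1.29 (Hsd17b7) and -0.65 (Ebp), with Nsdhl at -1.06 and the last reductase, Dhcr7, at -0.75, and none passed. A probe of Nsdhl was near 0 (0.14 and 0.12), while its others were at -1.86 and -1.76 and at -1.52 and -1.49. With a liver array left out, Msmo1 was still called both times (adjusted p = 0.0323 without replicate 1 and 0.0479 without replicate 2) and Hmgcs1 once (0.0248 and 0.0548), while Idi1 (0.231 and 0.0936), Cyp51 (0.0945 and 0.0997) and Sc5d (0.539 both times) were not.

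**Figure D2:**
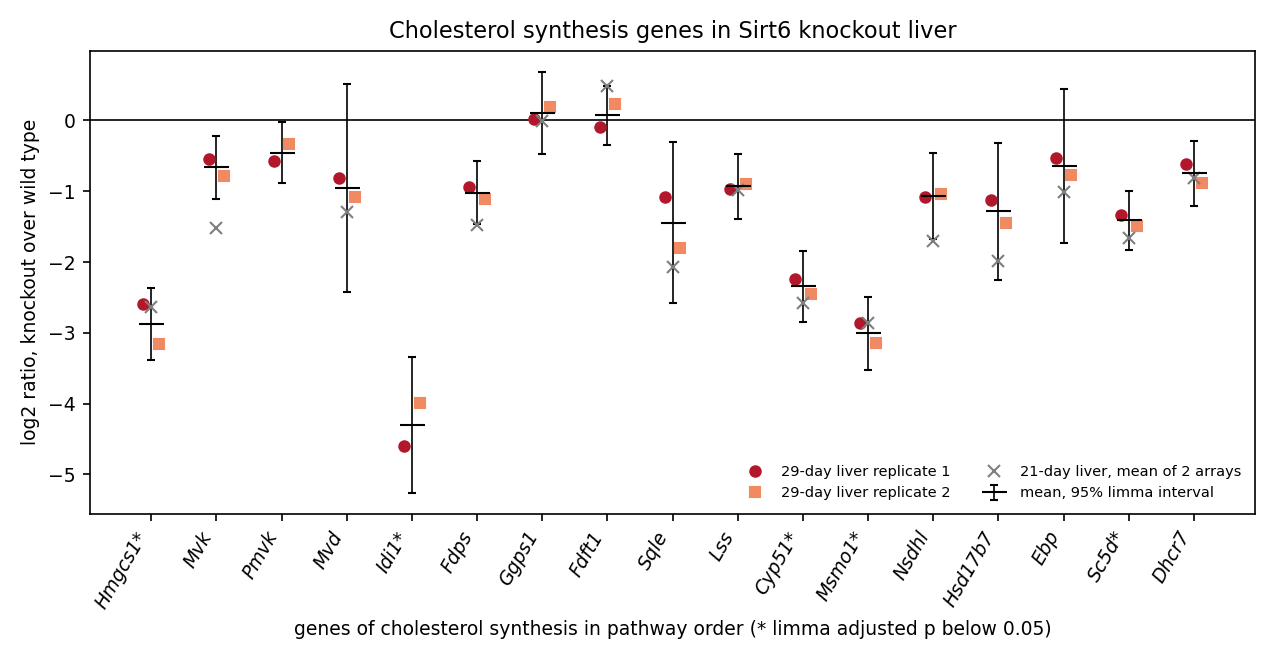
Log2 ratios of the 17 measured cholesterol synthesis genes in pathway order; circles and squares are replicates 1 and 2 of 29-day liver, bars the mean with limma's 95% interval, and crosses the mean of the 2 arrays of 21-day liver (none where an array had no value). The 5 genes marked with an asterisk passed the test, Idi1 lies lowest, and Ggps1 and Fdft1 lie near 0.

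Regulators of sterol balance did not pass the test in either direction, with 0 of 17 called by limma's adjusted p. At an unadjusted p below 0.05, 1 was higher and 3 lower, beside 0.724% and 1.45% of all features. The list's median was -0.01. Srebf1, which encodes SREBP1, was at -1.21 and -1.18 on replicates 1 and 2 (adjusted p = 1 with all arrays, and 0.023 with 29-day arrays alone, the only pass of the list in that fit). Insig1, which holds SREBP in the endoplasmic reticulum and is itself a target of it, was at -1.30 and -1.19, and Stard4, a sterol carrier, at -1.30 and -1.21. Insig2 was at 0.25 and -0.27. The sterol exporter genes Abca1 (0.92 and -0.08) and Abcg5 (0.83 and -0.03) were above 0 on replicate 1 alone. Mylip, which marks the LDL receptor for breakdown, was at 0.77 and 0.44 (mean 0.60, SE 0.22, adjusted p = 1).

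Fatty acid synthesis genes came next. In the lipogenesis list 2 of 20 fell and 0 rose, with 12 lower and 0 higher at an unadjusted p below 0.05, and 17 of 20 were below 0 on both arrays. Over all features the same shares were 0.0844% called lower, 1.45% lower at an unadjusted p below 0.05 and 22.9% below 0 on both arrays. The median was -0.76 (-0.77 on replicate 1 and -0.75 on replicate 2). The promoter of the fatty acid synthase gene Fasn, which fell, is at chr11:120824498-120824797 (minus strand) and holds 3 CCAAT matches, of which a pair overlap, and no TCACNCCAC match.
Fasn: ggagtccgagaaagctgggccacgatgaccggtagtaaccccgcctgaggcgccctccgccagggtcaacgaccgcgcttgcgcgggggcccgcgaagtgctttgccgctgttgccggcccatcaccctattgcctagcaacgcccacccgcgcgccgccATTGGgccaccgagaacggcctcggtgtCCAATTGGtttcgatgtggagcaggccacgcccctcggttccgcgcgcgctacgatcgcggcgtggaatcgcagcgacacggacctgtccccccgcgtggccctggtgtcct

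Fasn was at -2.04 and -1.73 (mean -1.88, SE 0.23, a 3.68-fold fall, adjusted p = 0.031). Me1, the malic enzyme that supplies NADPH for it, was at -1.41 and -1.21 (mean -1.31, SE 0.18, adjusted p = 0.0422). Neither was called with a liver array left out (adjusted p = 0.589 and 0.2425 for Fasn and 0.764 and 0.359 for Me1, without replicate 1 and replicate 2). Upstream of fatty acid synthase, the citrate lyase gene Acly was at -1.22 and -1.57 and the acetyl-CoA synthetase gene Acss2 at -1.11 and -1.57. The probes of Acss2 differed in size (-0.24 and -0.88 against -1.97 and -2.27). Downstream, Scd1, which makes oleate, was at -2.31 and -3.21, Elovl6, which lengthens palmitate, at -1.60 and -1.67, and Elovl5 at -0.82 and -0.99. Scd1 and Acly did not pass in the fit to all arrays (adjusted p = 0.077 and 0.132) and passed in the fit to 29-day arrays alone (0.0337 and 0.0297), which called 57 of 30796 features (0.185%), 50 lower (0.162%) and 7 higher (0.0227%). Thrsp, a lipogenic factor of liver, was at -1.66 and -0.65, and Mlxipl, which encodes the glucose-sensing factor ChREBP, at -0.72 and -0.58. Dgat2, which joins the last fatty acid to triglyceride, was at 0.56 and 0.29, and the glycolytic gene Pklr at -0.22 and -0.12.

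Bile acid genes held 3 falls among 22 tested, and 0 rises, beside 0.0844% of all features lower and 0.0195% higher. Cyp7b1, an oxysterol hydroxylase of the acidic route, was at -1.49 and -1.96 (mean -1.73, SE 0.18, adjusted p = 0.00747). Abcb11, the pump that exports bile salts into the canaliculus, was at -1.15 and -1.44 (mean -1.29, SE 0.17, adjusted p = 0.0478). Slco1a1, an uptake carrier for organic anions and bile acids on the blood side, was at -1.85 and -2.15 (mean -2.00, SE 0.18, adjusted p = 0.00377). The classical route was below 0 on both arrays without passing in the fit to all arrays: its rate-limiting enzyme gene Cyp7a1 was at -1.09 and -1.14, Cyp8b1, which makes cholic acid, at -1.44 and -1.05, and Baat, which conjugates bile acids, at -1.43 and -1.03. In the fit to 29-day arrays alone Cyp8b1 (adjusted p = 0.0317) and Baat (0.0272) passed. Of the other carriers, Slc10a1, the sodium-dependent uptake carrier, was at -0.17 and -0.43 and Slco1a4 at 0.60 and 0.60. The bile acid receptor gene Nr1h4 was at 0.39 and -0.23 and its target Nr0b2 at -0.37 and -1.10. The list's median was -0.33. With a liver array left out none of the 3 was called (adjusted p = 0.0653 to 0.421 without replicate 1, and 0.0937 to 0.682 without replicate 2).

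Enzymes that conjugate and clear drugs and steroids included the second lowest mean of any gene with a symbol. Sult3a1, a sulfotransferase, was at -3.81 and -3.65, a 13.3-fold fall (mean -3.73, SE 0.22, adjusted p = 0.000337), and it was called without replicate 1 (0.0239) and without replicate 2 (0.0176). In the list of conjugation enzymes and drug transporters, 3 of 41 fell and 0 rose, 25 were below 0 on both arrays and 3 above 0 on both, and the median was -0.44. Of all features 0.0844% were called lower, 22.9% were below 0 on both arrays and 23.9% above 0 on both. Ces3b, a carboxylesterase gene, was at -2.33 and -2.54 (mean -2.44, adjusted p = 0.00349). The glucuronosyltransferase genes Ugt2b37 (-1.90 and -2.33, adjusted p = 0.0147) and Ugt2b1 (-1.65 and -1.15, adjusted p = 0.0414) fell as well. None of these 3 was called with a liver array left out, the lowest adjusted p being 0.0666 for Ces3b without replicate 1. A probe of these families can also bind a near relative, so which member it reads is uncertain; the same holds for Mug, Saa and Orm genes and for P450 subfamilies.

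Relatives within the families went different ways between the arrays. The carboxylesterase genes Ces1f (-1.75 and 0.51), Ces1g (-2.55 and -0.37) and Ces1d (-0.94 and 0.98) were low on replicate 1, and the glutathione transferase genes Gsta1 (-0.96 and 0.44) and Gsta3 (-1.12 and 0.39) were also below 0 on replicate 1 alone. Others were alike on both: Gstm4 at -0.85 and -0.95, Gstt3 at -1.29 and -1.01, the sulfotransferase gene Sult1b1 at -1.25 and -0.87 and the epoxide hydrolase gene Ephx1 at -1.05 and -0.90. None of these 9 passed the adjusted test with all arrays, and Gstt3 passed with 29-day arrays alone (adjusted p = 0.0361).

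Cytochrome P450 genes of drug metabolism had 0 of 28 called by limma and a median of -0.27. At an unadjusted p below 0.05, 1 was higher and 8 lower, beside 0.724% and 1.45% of all features. Cyp2f2, a P450 of periportal hepatocytes, was at -2.01 and -2.03. Cyp2j5 was at -1.66 and -0.98, and Cyp2c23 at -0.99 and -1.12, both epoxygenases of arachidonic acid. The probes of Cyp2c23 differed in size (-1.75 and -1.72 against -0.23 and -0.52). Cyp4f14, which acts on leukotrienes and fatty acids, was at -1.80 and -1.74, and Cyp4v3 at -1.78 and -1.21; both passed in the fit to 29-day arrays alone (adjusted p = 0.00262 and 0.0354). Cyp3a13 was at 1.91 and 0.25. The receptors that induce P450 genes were near 0 or differed between arrays, with Nr1i2 at 0.16 and 0.07, Nr1i3 at 0.73 and -0.22 and Ahr at -0.15 and 0.17. The gap of Nr1i3 lay mostly in a single probe (2.13 and -0.45), while its others were at -0.02 and -0.27 and at 0.08 and 0.05.

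A further 3 genes fell that belong to no list. Aldh1a7, an aldehyde dehydrogenase, was at -1.66 and -1.81 (mean -1.73, SE 0.19, adjusted p = 0.00959). Mug1, a murinoglobulin that traps proteases in blood, was at -1.73 and -1.66 (mean -1.70, SE 0.22, adjusted p = 0.0255). Its relative Mug2 was at -1.46 and -1.57 (adjusted p = 0.077 with all arrays, and 0.0118 in the limma fit to 29-day arrays alone). Ddc, which decarboxylates aromatic amino acids to amines, was at -1.27 and -1.70 (mean -1.49, SE 0.18, adjusted p = 0.018). None of the 3 called genes was called with a liver array left out (0.181 to 0.518 without replicate 1 and 0.207 to 0.4175 without replicate 2). Aldh1a1, the retinaldehyde dehydrogenase gene, was at -2.88 and -2.49 and did not pass. The fit to 29-day arrays alone also called Keg1, an acyltransferase-like gene (-3.07 and -3.08, adjusted p = 0.00044 there and 0.0663 with all arrays), the repressor gene Bcl6 (-2.17 and -2.64), the organic anion carrier gene Slc22a30 (-1.40 and -1.61), S100a10, which partners annexin (-1.64 and -1.17), and Hsd17b2, which inactivates estradiol and testosterone (-1.37 and -1.43), as lower, and Serpina7, the thyroxine-binding globulin gene, as higher (2.31 and 1.23).

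The growth hormone and IGF axis had 0 of 20 genes called by limma's adjusted p, and its median was -0.15. At an unadjusted p below 0.05, 3 were higher and 5 lower, beside 0.724% and 1.45% of all features. The receptor gene Ghr was at -0.91 and -0.52 and the signal transducer gene Stat5b at -0.61 and -0.46. Igf1, the circulating growth factor, was at -1.09 and -1.04, and Igfals, which keeps IGF in blood, at -1.40 and -1.31 (mean -1.36, SE 0.22, adjusted p = 0.0779, and 0.0246 in the fit to 29-day arrays alone). The feedback inhibitor genes parted, with Socs2 at -0.43 and -1.14 and Cish at 0.70 and 0.17. Among the binding proteins, Igfbp1 was at 3.02 and 1.45 (mean 2.24, SE 0.33, adjusted p = 0.0757), Igfbp2 at 1.14 and 0.80 and Igfbp3 at 0.04 and -0.78. Egfr, an epidermal growth factor receptor, was at -0.09 and -1.80, so the arrays differed.

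Genes that are sex-biased in adult liver included falls in both lists. Of 12 male-biased genes 3 fell and 0 rose (Slco1a1, Cyp7b1 and Ugt2b1, given above), with a median of -0.49, beside 0.0844% of all features lower. Keg1 and Nudt7 (-1.31 and -2.12) were also low, but the male-biased genes Cyp2d9 (0.76 and 0.98) and Hsd3b5 (0.01 and 0.46) were not. Of 18 female-biased genes 1 fell, Sult3a1, and 0 rose, with a median of 0.14. Cyp3a41a was at -2.07 and -1.44, whereas Cyp3a16 was at 0.57 and 1.11 and Fmo2 at 0.46 and 1.31. Y-linked genes differed between the arrays: the translation factor gene Eif2s3y was at -0.13 on replicate 1 and 3.35 on replicate 2, and the demethylase gene Kdm5d at -0.12 and 0.75. Eif2s3y was also high on replicate 2 of the other 29-day tissues (4.43 in skin, 3.88 in spleen and 5.08 in thymus, against -0.10, 0.37 and 0.35 on replicate 1). The part of sex in the ratios was not tested. A gap between the liver arrays adds to the SE of a gene, so the calls were no test of the part of sex.

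Of the 2 named genes that rose, Igf2, the growth factor of the fetus, was at 3.31 and 2.26 (mean 2.79, SE 0.27, a 6.89-fold rise, adjusted p = 0.00521), and was called without replicate 2 (0.0226) but not without replicate 1 (0.121). Radx, which protects replication forks, was at 1.499 and 1.757 (mean 1.63, SE 0.19, a 3.09-fold rise, adjusted p = 0.0147) and was not called with either array left out (0.225 and 0.325). The probes of Radx differed in size, at 0.75 and 1.33 against 2.25 and 2.19 on replicates 1 and 2. Of 13 genes of fetal liver and imprinted growth, 1 rose and 0 fell, beside 0.0195% of all features higher. The list's median was 0.12, and 12 of 13 were above 0 on both arrays, which 23.9% of all features were. Gpc3, a fetal proteoglycan, was at 2.41 and 0.61, the growth inhibitor gene Cdkn1c at 1.46 and 0.41, Afp, the fetal albumin, at 1.23 and 0.38, and Peg3 at 0.97 and 0.33; all 4 were higher on replicate 1 and none passed. Dlk1 (0.09 and 0.05), Mest (0.15 and 0.10) and Hmga2 (0.03 and 0.06) were near 0.

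Acute phase genes set the 2 arrays apart. The median of the 29 tested genes was 1.17, made up of 2.25 on replicate 1 and 0.13 on replicate 2. By limma's adjusted p 0 were called, and 14 were higher and 0 lower at an unadjusted p below 0.05. Of all features the latter shares were 0.724% and 1.45%. The orosomucoid genes Orm1 (3.40 and -1.16) and Orm2 (4.03 and -1.25) were of opposite sign on the arrays. The serum amyloid gene Saa3 was at 3.14 and 0.24, the haptoglobin gene Hp at 3.03 and 0.74, the hemopexin gene Hpx at 2.81 and 0.06, and the fibrinogen gene Fga at 2.30 and -0.43. Over all genes with a symbol, 29 were more than 2 higher on replicate 1 than on replicate 2 and 5 the other way round, and 15 of the 29 were members of this list. The metallothionein genes Mt1 (3.32 and 1.95) and Mt2 (2.63 and 1.93) and Il1rn, the interleukin receptor antagonist (2.01 and 0.93), were above 0.9 on both arrays. Their means were 2.63 (SE 0.55), 2.28 (SE 0.52) and 1.47 (SE 0.24), with no adjusted p under the threshold. Lcn2 (3.60 and 1.19, mean 2.40, SE 0.66) and Saa2 (3.48 and 1.06, mean 2.27, SE 0.51) were above 0.9 on both arrays as well. Of the 29 genes 18 were above 0 on both arrays, which 23.9% of all features were.

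Several inflammatory genes and the Kupffer cell and neutrophil markers were also higher on replicate 1, while the T and NK cell and B cell markers were not. Of 29 NF-kB target genes 0 were called by limma, and their median was 0.18. With an unadjusted p below 0.05, 4 were higher and 0 lower, beside 0.724% and 1.45% of all features. The neutrophil chemokine gene Cxcl1 was at 4.63 and 0.36 and Il6 at 1.71 and -0.09, while Tnf was at 0.11 and 0.12 and the inhibitor gene Nfkbia at 0.62 and 0.12. The 10 markers of Kupffer cells and macrophages had a median of 1.05 on replicate 1 and 0.15 on replicate 2, with Marco at 2.71 and -0.20, Cd5l at 1.83 and 0.18 and Clec4f, which marks Kupffer cells, at 0.75 and 0.31. At an unadjusted p below 0.05, 4 of the 10 were higher and 1 lower, the iron exporter gene Slc40a1 at -0.71 and -1.21. The 12 neutrophil markers had medians of 0.61 and -0.03, with S100a8 at 2.69 and 0.13 and S100a9 at 2.77 and -0.63, but the granule genes Ngp (0.53 and -0.09) and Mpo (0.54 and -0.07) moved less. The part of these cells in the acute phase values was not tested. In whole liver, more cells of a type and more RNA per cell cannot be told apart.

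**Figure D3:**
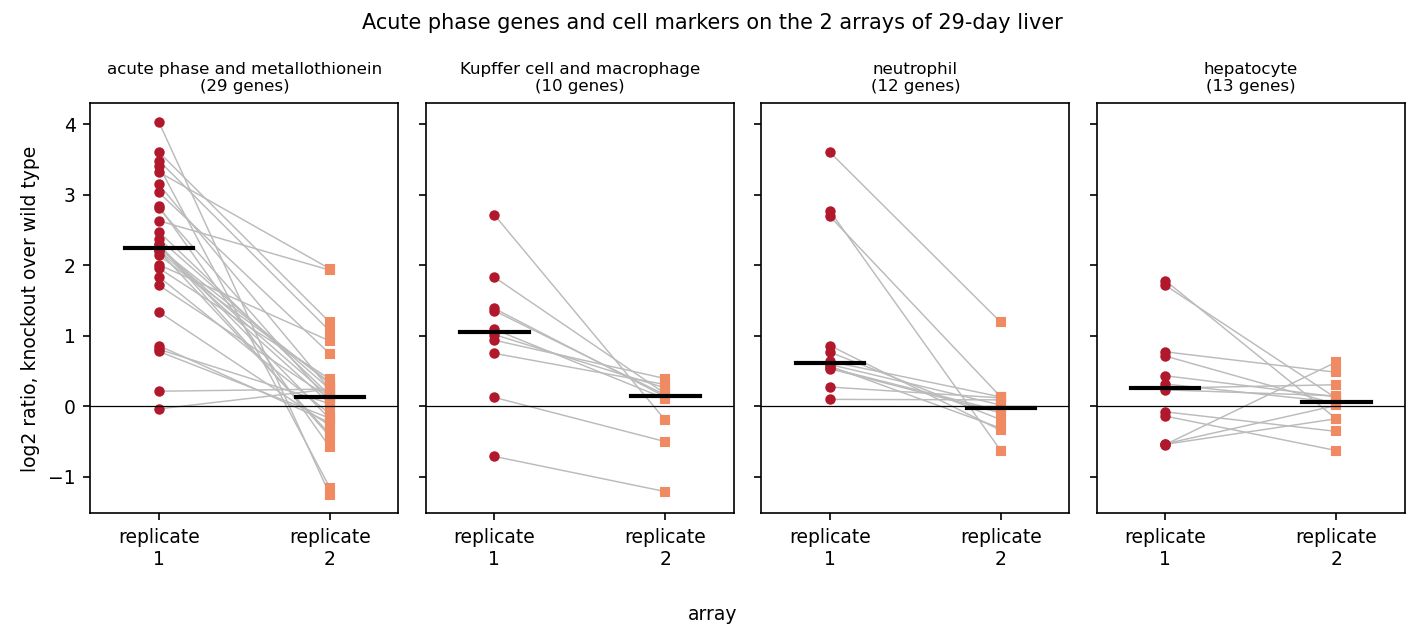
Log2 ratio on replicates 1 and 2 of 29-day liver for the genes of 4 lists; each line joins the values of a gene, and the thick bars are medians. The acute phase median is 2.25 on replicate 1 and 0.13 on replicate 2, the Kupffer cell and neutrophil medians are also higher on replicate 1, and the hepatocyte median is 0.26 and 0.06.

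The label of the tissue was set against its markers. Ratios carry no level, so they show only whether hepatocyte genes differ between the channels. The 13 hepatocyte markers had a median of 0.19 (0.26 and 0.06), with 0 called by limma. At an unadjusted p below 0.05, 1 was higher, beside 0.724% of all features. Alb was at -0.54 and 0.63, Hnf4a at 0.32 and 0.06 and Ttr at -0.53 and 0.01. Markers of liver endothelium (10 genes, median 0.24), of stellate cells and fibroblasts (13, 0.15), of T and NK cells (12, 0.03, with -0.02 on replicate 1 and 0.10 on replicate 2), of B cells (8, 0.01, with -0.07 and 0.10), of red cell precursors (10, -0.002) and of bile duct (6, 0.003) also had 0 called. The same held for exocrine pancreas (7, 0.04), adipocytes (8, 0.07), skeletal muscle (7, 0.0005) and kidney (7, 0.11). In the fit to 29-day arrays alone 1 exocrine pancreas marker passed as lower. Single markers stood off their lists. Cela1, an elastase, was at -1.08 and -1.49, Car3, a carbonic anhydrase of fat and liver, at -3.01 and -1.10, and Fabp4, a fatty acid binding protein, at 2.08 and 1.25.

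Central carbon and nitrogen metabolism showed 0 calls. Glycolysis and glucose uptake (23 genes) had a median of -0.003, gluconeogenesis and glycogen (14) of -0.04, amino acid breakdown and the urea cycle (26) of -0.13, and fatty acid oxidation and ketone synthesis (25) of 0.14. At an unadjusted p below 0.05 these lists had 1 higher and 1 lower, 1 and 1, 2 and 5, and 3 and 1. Over all features 0.724% were higher and 1.45% lower by it. The glucose transporter gene Slc2a1 was at 0.20 and 0.23, and Ldha, lactate dehydrogenase, at 1.21 and 0.12. Pck1, the gatekeeper of glucose synthesis, was at -0.09 and 0.09 and G6pc, which releases free glucose, at -0.40 and 0.24. Cpt1a, the carrier step of fatty acid oxidation, was at 0.46 and 0.48, whereas Cyp4a10 (-0.77 and 1.47), Acot1 (-0.95 and 1.09) and Ehhadh (-0.90 and 0.23), targets of the fasting receptor PPARA, were above 0 on replicate 2 alone. Other targets of it were above 0 on both arrays, with Cyp4a14 at 0.72 and 1.64 and Vnn1 at 0.88 and 0.43. Kynu, a kynurenine hydrolase, was at -0.76 and -1.23 and Hal, which breaks down histidine, at -0.58 and -1.24.

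Zonation lists had 0 called, with medians of -0.07 over 19 pericentral genes and -0.29 over 15 periportal genes. At an unadjusted p below 0.05, 3 and 4 were lower and 0 higher, beside 1.45% and 0.724% of all features. The pericentral gene Glul was at -0.04 and -0.14 and Axin2, a Wnt target, at -0.13 and -0.06, while the periportal gene Pigr, which carries antibodies into bile, was at -1.79 and -1.66. Coagulation, complement and carrier proteins (44 genes, median 0.09) had medians of 0.43 on replicate 1 and -0.20 on replicate 2. In each of the lists for stress, repair, division and immunity 0 were called by limma. Outside the acute phase and NF-kB lists given above, their medians lay between -0.07 for interferon-induced genes (23) and 0.08 for p53 targets (21). The p53 target Cdkn1a, a cell cycle inhibitor, was at 0.78 and 0.60. The 22 base excision repair genes had a median of -0.01 with 0 at an unadjusted p below 0.05, and the 36 cell cycle and replication genes a median of 0.03, also with 0. The 19 clock genes had a median of 0.05, the 30 genes of the amino acid and ER stress response 0.05, the 21 genes induced by FoxO or glucocorticoid 0.06 and the 7 MHC class II genes 0.06. The other sirtuins tested were at 0.08 (Sirt1), -0.19 (Sirt2), -0.09 (Sirt3) and -0.31 (Sirt5).

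**Figure D4:**
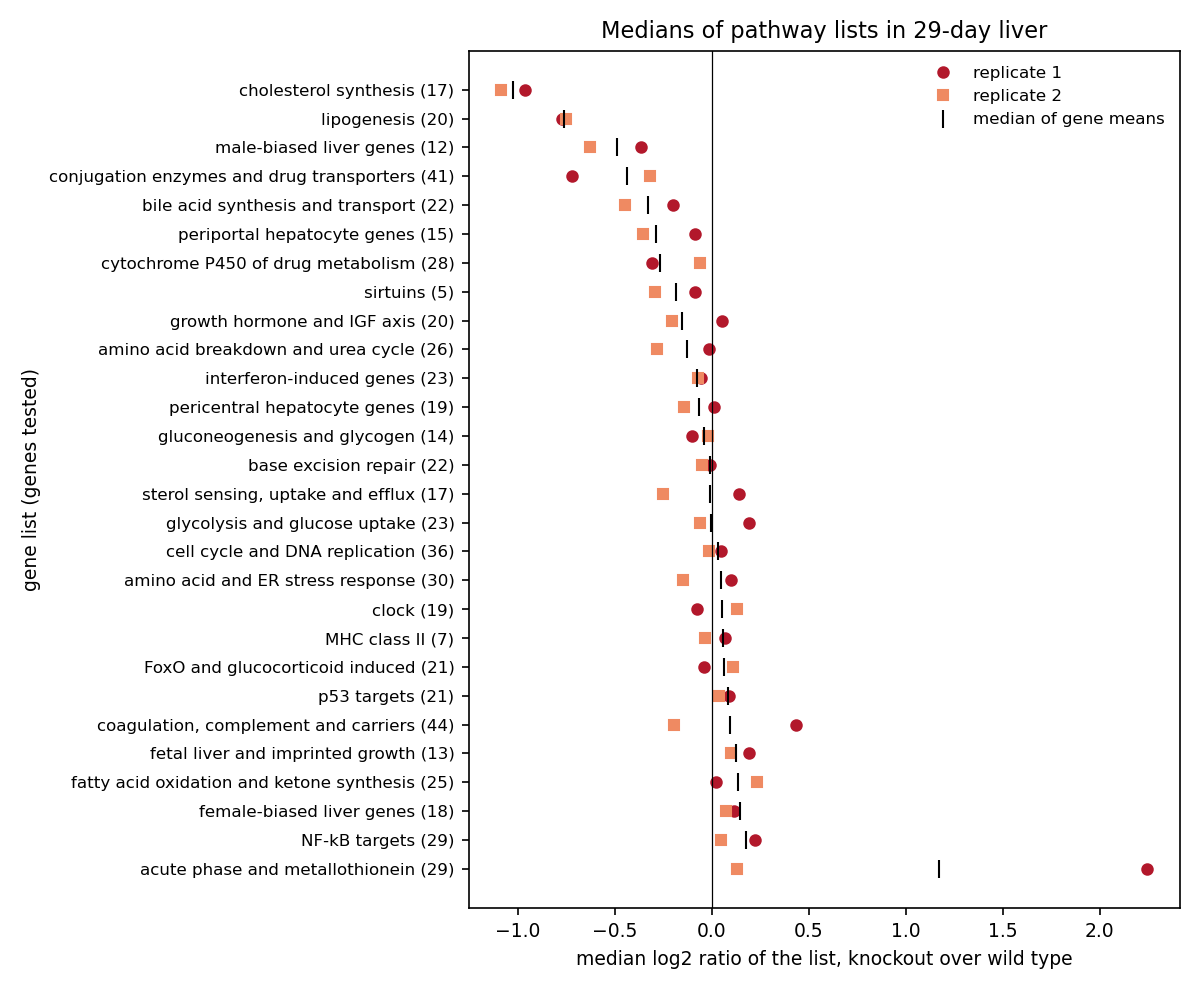
Median log2 ratio of 28 pathway lists in 29-day liver, on replicate 1 (circles), on replicate 2 (squares) and over the gene means (bars), with the number of genes tested. Cholesterol synthesis and lipogenesis have the lowest medians and close values on both arrays, and acute phase genes the highest median and the widest gap between arrays.

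Liver was then compared with the mean of skin, spleen and thymus of the same age, a contrast in which a dye preference shared by all groups cancels. Of 30641 features 11 were called (0.0359%), 10 lower in liver (0.0326%) and 1 higher (0.00326%), and 7 had a symbol. Msmo1 (difference -2.35, SE 0.26, adjusted p = 0.0235) and Hmgcs1 (-2.20, SE 0.26, adjusted p = 0.0299) were the 2 of 17 cholesterol genes called. In both, the other tissues were below 0 as well, with Hmgcs1 at -0.56 in skin, -0.97 in spleen and -0.50 in thymus. Idi1 was at -1.35 in skin, -1.12 in spleen and -1.46 in thymus, and its difference of -2.99 did not pass (SE 0.48, adjusted p = 0.178). Fasn was at -1.76 in thymus, close to its -1.88 in liver, and its difference was -0.85 (SE 0.27, adjusted p = 1).

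The other 5 named genes had ratios near 0 in the other tissues. Sult3a1 (difference -3.98, SE 0.26, adjusted p = 0.00138) was between 0.03 and 0.42 in the 3 other tissues. Ces3b (-2.50, adjusted p = 0.0124), Slco1a1 (-2.09, adjusted p = 0.0124), Ugt2b37 (-2.36, adjusted p = 0.0345) and Cyp7b1 (-1.80, adjusted p = 0.0263) had means between -0.18 and 0.44 there. Whether these tissues express the genes at all cannot be read from ratios. Igf2 was at 2.00 in skin, 0.70 in spleen and -0.27 in thymus, and its difference of 1.98 did not pass (SE 0.31, adjusted p = 0.127). Radx was between 0.11 and 0.23 in the other tissues (difference 1.44, SE 0.22, adjusted p = 0.117). The number of calls moved between 1 and 30 when single arrays were left out: 1 without 29-day liver replicate 1, 3 without 29-day liver replicate 2, 1 and 2 without skin replicates 1 and 2, 1 and 3 without thymus replicates 1 and 2, 7 without either 29-day spleen array and 30 without either 21-day spleen array. Centring on ribosomal protein and respiratory chain genes gave 0 calls by limma, the replicate number as a block 6, scaling 154 (34 higher) and quantile normalization 162 (42 higher).

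**Figure D5:**
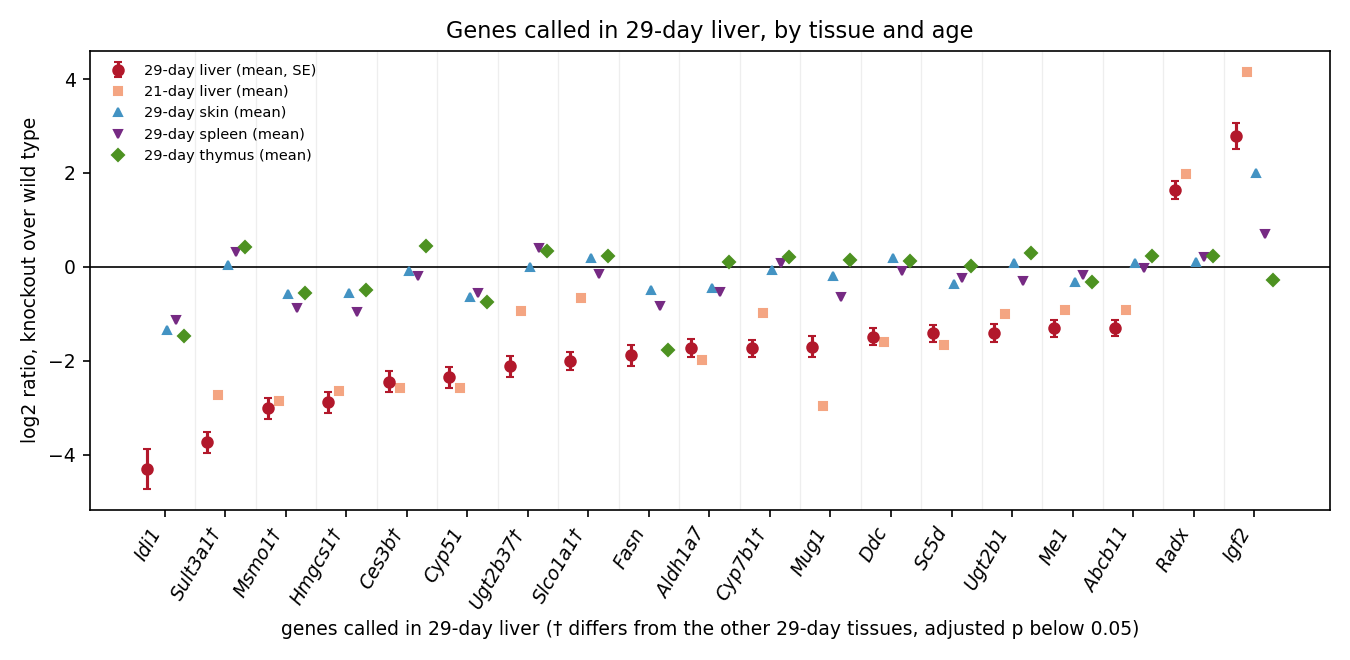
Mean log2 ratio of the 19 named genes called in 29-day liver (circles with SE) beside 21-day liver, 29-day skin, 29-day spleen and 29-day thymus. Most genes lie far from 0 in both livers and near 0 in the other tissues, Idi1 is below -1 in each 29-day tissue, and daggers mark the 7 genes whose difference between liver and the other 29-day tissues passed the test.

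Liver at 29 days was last set against liver at 21 days, where age cannot be told apart from the set of arrays. Ratios of all probes spread more widely on the 21-day liver arrays (SD 0.75 and 0.72) than on the 29-day ones (0.31 and 0.36). The sizes of ratios at the ages are therefore not on a like scale. The Y-linked ratios differed between the sets as well: Eif2s3y was at -0.13 and 3.35 on the 29-day liver arrays and at -2.87 and -2.98 on the 21-day ones. Their part in the differences, those of the sex-biased genes included, was not tested. Of 29043 features 4 were called (0.0138%), all 4 higher at 29 days and all unnamed probes, which at 29 days lay between -0.01 and 0.18. None of the named genes passed this test. Slco1a1 was at -2.00 at 29 days and -0.66 at 21 days (difference -1.34, adjusted p = 0.169), and Ugt2b37 at -2.12 and -0.93 (-1.18, adjusted p = 0.331). Mug1 was at -1.70 at 29 days and -2.95 at 21 days (1.26, adjusted p = 0.26), and Igf2 at 2.79 and 4.16 (-1.37, adjusted p = 0.322). The cholesterol synthesis list had a median of -1.02 at 29 days and -1.52 at 21 days. Msmo1 was at -3.01 at 29 days and -2.86 at 21 days, and Cyp51 at -2.35 and -2.57, whereas Mvk was at -0.66 and -1.52 (difference 0.86, SE 0.28, adjusted p = 0.428), Nsdhl at -1.06 and -1.70 and Hsd17b7 at -1.29 and -1.98. The Nsdhl probe that was near 0 at 29 days had no value on 21-day replicate 11, which lowers its 21-day mean. A p above the threshold does not show that the ages are alike. The count of 4 moved with single arrays, to 518 without 21-day liver replicate 11, 393 without 21-day liver replicate 2, 69 without either 21-day spleen array, 1 without 29-day liver replicate 1 and 0 without 29-day liver replicate 2 or any other 29-day array. With no centring it was 23, all higher at 29 days, and with scaling 15, of which 1 was higher.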

How the data were processed

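The authors deposited 1 table of log2 ratios of 38784 probes on 12 arrays, Cy5 (knockout) over Cy3 (wild type) per the labels; base 2 is inferred from the values. The sources used here do not give the authors' background correction, normalization or centring. The table holds ratios and no signals, so no filter on dim spots was possible.

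Arrays were centred on their medians. GEO's platform annotation named 22204 probes, all found by gene ID in the RefSeq gene table (GRCm38.p6), and left 16580 unnamed. Averaging probes per symbol gave 31234 features, tested where both 29-day liver arrays and both arrays of 2 or more further groups were present. Group means were fitted with limma 3.58.1 (R 4.3.3; lmFit and eBayes), with up to 6 residual and 3.59 prior degrees of freedom, two-sided p-values adjusted by Benjamini-Hochberg over all features tested, and a threshold of 0.05. Scripts were tested on simulated data.

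Named genes are Sirt6, genes called in 29-day liver, in the fit to 29-day arrays alone (up to 10 each way) or in a contrast, up to 8 members of each list of largest mean among those of 1 sign on both arrays, and members whose roles the text orders, such as regulators. Ces1d, Ces1f, Ces1g, Gsta1, Gsta3, Orm1, Orm2 and other members given for differing between arrays were chosen after their values were seen. The members and the 42 lists (863 genes, 713 tested) were chosen with earlier results of these data known. Promoters come from RefSeq (GRCm38.p6), where 14 of 17 cholesterol genes matched. Alternatives changed the centring, scaling, probe summary, filter, fit or threshold, or left out an array.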

Additional observations from a re-analysis of the deposited data

Results flagged for a closer look

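There were 11 features that differed between 29-day liver and the mean of 29-day skin, spleen and thymus by limma's test of the difference (adjusted p below 0.05), each given as the liver log2 ratio minus that mean. Among named genes the differences were -3.9844 for Sult3a1, -2.4969 for Ces3b, -2.3639 for Ugt2b37, -2.3464 for Msmo1, -2.2027 for Hmgcs1, -2.0867 for Slco1a1 and -1.8004 for Cyp7b1. Unnamed probes gave -2.6409, -2.5927, -2.1542 and 3.0806.

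Between 29-day and 21-day liver the same test separated 4 unnamed probes, with differences of 2.2515, 3.4175, 2.426 and 2.549. Their 29-day means were near 0. No group has enough arrays for a test of single arrays that stand apart.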

How the results depend on the processing

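The count of 32 calls in 29-day liver was 57 with 29-day arrays alone, 11 with centring on ribosomal protein and respiratory chain genes, 289 with scaling, 429 with quantile normalization, 16 with values required on all 12 arrays, 228 with array weights, 57 at an adjusted p below 0.1 and 74 without the 3 widest arrays, an alternative chosen after seeing the data. The 11 calls against the other tissues became 20, 0, 154, 162, 8, 71, 16 and 20 under the same alternatives. The 4 calls against 21-day liver became 23 with no centring, 0 with ribosomal centring, with quantile normalization and with values on all arrays, 15 with scaling, 71 with weights, 24 at the looser threshold and 103 without the widest arrays. Leaving out single arrays gave 12 to 59, 1 to 30 and 0 to 518 calls. The cause of these changes was not tested. Sirt6, the genes called in 29-day liver and those of largest mean called with 29-day arrays alone were followed across the alternatives. Other named genes were not. A gene of opposite sign on the liver arrays, such as Orm1 (3.40 and -1.16), takes the sign of the array that is kept. No followed mean in 29-day liver and no named difference from the other tissues changed sign. Several list medians near 0 did, such as sterol sensing (-0.25 to 0.14), the growth hormone axis (-0.27 to 0.05) and coagulation (-0.20 to 0.43), while the cholesterol median stayed between -1.64 and -0.94. Msmo1 and Sult3a1 were called in 29-day liver under each of the 24 alternatives.

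Replicate numbers were tried as a block. With the replicate block 26 features were called in 29-day liver, 6 against the other tissues and 0 against 21-day liver. Deviations of same-numbered 29-day arrays correlated at 0.413 for liver and spleen but 0.00358 for liver and skin and -0.0106 for liver and thymus. Among the other tissues they correlated at 0.222 (skin and spleen), 0.0276 (skin and thymus) and -0.209 (spleen and thymus). The numbers were therefore not taken to pair the samples in the main fit. The labels name no shared animal. Eif2s3y and Kdm5d were both higher on replicate 2 than on replicate 1 of each 29-day tissue, a hint that the data alone give. Whether same-numbered arrays share an animal is therefore not settled, and the main fit treats all arrays as independent. With the block Msmo1, Hmgcs1, Ugt2b37 and Cyp7b1 were no longer called against the other tissues.

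With 2 arrays per group and ratios without signals, dim probes cannot be told from bright ones, and small changes were not detectable.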

Other observations

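Some genes outside the lists differed by more than 2 between the arrays of 29-day liver; they were chosen after their values were seen and carry no test. The protease inhibitor gene A2m was at 3.97 on replicate 1 and 0.025 on replicate 2, and Fgl1, a fibrinogen-like protein of liver, at 2.45 and -0.04. Dnajc12, a chaperone partner, was at 2.67 and 0.08, Nnmt, which methylates nicotinamide, at 1.96 and -0.57, and Idua, a lysosomal enzyme, at 2.30 and -0.46. Rab5b, an endosome GTPase, was at 0.56 and -3.81. The globin gene Hbb-bt was at 1.10 and -1.34.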
